A study of Mus musculus with 8 samples.

Results

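The 8 genes of the striated muscle troponins were examined in mouse undifferentiated pleomorphic sarcoma (UPS): Tnni1, Tnni2 and Tnni3 for troponin I, Tnnt1, Tnnt2 and Tnnt3 for troponin T, and Tnnc1 and Tnnc2 for troponin C. They were taken by symbol from the table of counts, where all 8 were found among 26667 genes, and all 8 were among the 14867 genes that passed the filter on low counts. The rule used symbols and no measured value, but the group was picked with earlier results of these data known. KP tumours arose in Trp53 fl/fl mice, and KPH2 tumours in mice of the same genotype that were also Epas1 fl/fl, so both groups shared the deleted Trp53 alleles and differed by design in Epas1, which encodes HIF-2α. Tumours were started by injecting an adenovirus expressing Cre into the hind limb muscle of mice at least 8 weeks old, on a mixed 129 and C57BL/6 background and of both sexes, and were collected 7 weeks later or once they reached the size limit. The virus can recombine any cell it infects, and a section of such a tumour can hold muscle around it. RNA from formalin-fixed, paraffin-embedded (FFPE) sections of 4 KP tumours (KP 5 to KP 8) and 4 KPH2 tumours (KPH2 1 to KPH2 4) was sequenced, with 1 library per tumour.

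Troponin is the calcium switch of striated muscle. Troponin C binds calcium, troponin I holds actin and myosin apart at rest, and troponin T ties the complex to tropomyosin along the thin filament. Fast skeletal fibres use the products of Tnni2, Tnnt3 and Tnnc2, slow skeletal fibres those of Tnni1, Tnnt1 and Tnnc1, and heart muscle those of Tnni3, Tnnt2 and Tnnc1. Usage changes with age: Tnni1 and Tnnt2 are also transcribed in immature skeletal muscle, and Tnni1 in the fetal heart, whereas Tnni3 is the troponin I of the mature heart.

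The troponin I and T genes lie in 3 neighbouring pairs, each of 1 troponin I and 1 troponin T gene (positions on GRCm38.p6). Tnni2 (Entrez Gene 21953, chr7:142441816-142444410, plus strand) and Tnnt3 (21957, chr7:142498771-142516213, plus strand), both fast, are 54360 bases apart. Tnni1 (21952, chr1:135783033-135810989, plus strand), slow, and Tnnt2 (21956, chr1:135836315-135852268, plus strand), cardiac, are 25325 bases apart. Tnnt1 (21955, chr7:4504569-4515975, minus strand), slow, and Tnni3 (21954, chr7:4518305-4522718, minus strand), cardiac, are separated by 2329 bases with no gene between them. The troponin C genes stand alone, Tnnc2 (21925, chr2:164777161-164779734, minus strand) and Tnnc1 (21924, chr14:31208312-31211729, plus strand). An exon of Tnnc2 overlaps Ube2c on the opposite strand. The libraries were stranded, but the strand setting of the counting was not given in the sources used here.

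The promoters of the genes whose levels moved together in the tumours, and of Tnni3, which did not move with them, are shown to let their sequences be set beside the values. Each line gives the 250 bases before the first listed start of the gene (RefSeq, GRCm38.p6), 5′ to 3′ on the strand of the gene, and that start can lie inside the span of the gene given above. RefSeq promoters were matched for 6 of the 8 genes, all but Tnni2 and Tnnt3. Capitals mark E-boxes (CANNTG, the motif of MyoD and related factors) and M-CAT elements (CATTCC, or GGAATG on the other strand, the motif of TEAD factors).
Tnni1 (chr1:135799171-135799420, plus strand): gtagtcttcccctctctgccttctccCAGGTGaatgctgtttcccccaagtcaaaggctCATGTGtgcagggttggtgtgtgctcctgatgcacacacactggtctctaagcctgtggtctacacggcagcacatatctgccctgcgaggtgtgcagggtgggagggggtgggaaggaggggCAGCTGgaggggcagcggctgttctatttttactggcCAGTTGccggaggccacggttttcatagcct
Tnnt1 (chr7:4515976-4516225, minus strand): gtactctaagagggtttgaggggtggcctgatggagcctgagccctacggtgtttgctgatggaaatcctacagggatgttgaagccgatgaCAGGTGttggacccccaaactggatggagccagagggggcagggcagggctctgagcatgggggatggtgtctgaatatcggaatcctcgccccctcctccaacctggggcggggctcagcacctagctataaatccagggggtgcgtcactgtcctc
Tnnc1 (chr14:31208062-31208311, plus strand): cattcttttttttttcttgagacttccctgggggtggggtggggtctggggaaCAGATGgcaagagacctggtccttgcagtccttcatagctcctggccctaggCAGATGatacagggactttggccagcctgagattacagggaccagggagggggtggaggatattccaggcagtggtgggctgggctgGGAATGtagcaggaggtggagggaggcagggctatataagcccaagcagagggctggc
Tnnt2 (chr1:135836084-135836333, plus strand): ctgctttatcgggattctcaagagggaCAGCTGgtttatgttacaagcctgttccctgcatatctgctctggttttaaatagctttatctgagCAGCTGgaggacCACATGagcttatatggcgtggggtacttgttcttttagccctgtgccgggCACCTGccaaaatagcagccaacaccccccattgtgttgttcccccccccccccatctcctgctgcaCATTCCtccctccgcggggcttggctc
Tnni3 (chr7:4522529-4522778, minus strand): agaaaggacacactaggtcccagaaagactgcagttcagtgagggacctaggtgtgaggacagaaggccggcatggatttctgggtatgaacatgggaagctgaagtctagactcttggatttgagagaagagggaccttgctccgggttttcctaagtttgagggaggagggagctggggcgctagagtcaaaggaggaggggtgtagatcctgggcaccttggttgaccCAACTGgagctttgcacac
Tnnc2 (chr2:164779735-164779984, minus strand): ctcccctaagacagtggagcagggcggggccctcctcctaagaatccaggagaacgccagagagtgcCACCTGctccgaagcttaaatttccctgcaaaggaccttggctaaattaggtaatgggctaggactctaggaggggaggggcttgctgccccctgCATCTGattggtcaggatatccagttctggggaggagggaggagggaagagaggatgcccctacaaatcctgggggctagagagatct
An E-box was found in all 6 promoters, with 4 each in Tnni1 and Tnnt2, 2 each in Tnnc1 and Tnnc2 and 1 each in Tnnt1 and Tnni3. Of 32851 mouse promoter windows of the same length, 66.2% held at least 1. An M-CAT element was found in Tnnc1 and Tnnt2, and in 12.6% of all windows. MEF2 sites (0.508% of all windows) and CArG boxes (1.47%), searched on both strands, were not found in the 6 windows. These are matches of letters in these windows and not measured sites.

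Total counts ran from 6463221 to 13155510 per tumour. The methods of the study exclude a single Epas1-deleted tumour as a technical outlier, and KPH2 1 is absent from the authors' normalized table of 7 tumours, so groups were tested over KP 5 to KP 8 and KPH2 2 to KPH2 4 and KPH2 1 is given apart. Epas1, the deleted gene, stood at 59.1 to 86.7 CPM in KP tumours and at 32.6 to 53.3 CPM in KPH2 tumours (edgeR's quasi-likelihood test, log2 fold change -0.81, adjusted p = 0.0742). Levels are normalised read counts (CPM, read counts per library size after TMM scaling). Nothing in the labels ties 2 tumours to 1 mouse or tells littermates apart, and p-values measure the spread between these tumours.

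Per length of transcript the fast troponins were on average the most abundant troponins in both groups, and they stood higher on average in KPH2 2 to KPH2 4 than in KP tumours without reaching the adjusted threshold. Tnnt3, fast troponin T, was counted at 57.4, 16.5, 29.3 and 35.9 CPM in KP 5 to KP 8, at 138.4, 248.0 and 38.7 CPM in KPH2 2 to KPH2 4, and at 23.2 CPM in KPH2 1. KPH2 2 and KPH2 3 were above every KP tumour, KPH2 4 was below KP 5, and KPH2 1 was within the KP range. Its mean was 34.8 ± 17.1 CPM over the KP tumours (SD, n = 4) and 141.7 ± 104.7 CPM over KPH2 2 to KPH2 4 (SD, n = 3), with a fitted log2 fold change of 2.02 ± 0.60 (SE; edgeR, adjusted p = 0.134).

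Tnni2, fast troponin I, was counted at 24.8, 5.65, 9.92 and 14.8 CPM in KP 5 to KP 8, at 57.4, 98.8 and 16.6 CPM in KPH2 2 to KPH2 4, and at 8.86 CPM in KPH2 1. The order of the tumours was close to that of Tnnt3, with KP 5 the highest and KP 6 the lowest of the KP tumours and KPH2 4 again inside their range. The log2 fold change was 2.04 ± 0.63 (SE; edgeR, adjusted p = 0.143). Tnnc2, fast troponin C, was counted at 30.2, 5.93, 14.8 and 16.5 CPM in KP 5 to KP 8, at 81.0, 123.3 and 18.6 CPM in KPH2 2 to KPH2 4, and at 9.26 CPM in KPH2 1. Its log2 fold change was 2.12 ± 0.66 (SE; edgeR, adjusted p = 0.147). Ube2c, which overlaps Tnnc2 and encodes a ubiquitin-conjugating enzyme of mitosis, stood at 23.4 to 40.2 CPM in KP, 36.2 to 49.8 CPM in KPH2 2 to KPH2 4 and 43.2 CPM in KPH2 1, so its spread was much narrower than that of Tnnc2.

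The slow troponins had low counts in the KP tumours and in KPH2 1 and several times higher levels in KPH2 2 to KPH2 4, again without reaching the adjusted threshold. Tnni1, slow troponin I, was counted at 1.11, 10.03, 0.148 and 3.09 CPM in KP 5 to KP 8, at 65.0, 66.9 and 23.2 CPM in KPH2 2 to KPH2 4, and at 0.319 CPM in KPH2 1. In counts this was 15, 71, 1 and 41 in KP tumours, 723, 670 and 206 in KPH2 2 to KPH2 4 and 4 in KPH2 1. Every one of KPH2 2 to KPH2 4 was above every KP tumour, while KPH2 1 fell among the lowest of the KP values. The mean was 3.59 ± 4.46 CPM over the KP tumours (SD, n = 4) and 51.7 ± 24.7 CPM over KPH2 2 to KPH2 4 (SD, n = 3), with a fitted log2 fold change of 3.89 ± 0.90 (SE; edgeR, adjusted p = 0.073).

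Tnnt1, slow troponin T, was counted at 0.889, 2.97, 0.444 and 2.86 CPM in KP 5 to KP 8, at 18.5, 39.2 and 5.51 CPM in KPH2 2 to KPH2 4, and at 0.798 CPM in KPH2 1. Again KPH2 2 to KPH2 4 did not overlap the KP tumours and KPH2 1 lay within them. The log2 fold change was 3.54 ± 0.77 (SE; edgeR, adjusted p = 0.0628). Tnnc1, the troponin C shared by slow fibres and the heart, was counted at 1.48, 8.47, 0.740 and 2.56 CPM in KP 5 to KP 8, at 53.3, 46.5 and 10.9 CPM in KPH2 2 to KPH2 4, and at 0.479 CPM in KPH2 1. KPH2 2 to KPH2 4 were again above every KP tumour, with KP 6 closest to them, but KPH2 1 was below every KP tumour. The log2 fold change of Tnnc1 was 3.51 ± 0.80 (SE; edgeR, adjusted p = 0.0708).

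The cardiac genes went separate ways. Tnnt2, cardiac troponin T, was counted at 1.26, 11.9, 1.78 and 0.83 CPM in KP 5 to KP 8, at 61.0, 68.7 and 18.1 CPM in KPH2 2 to KPH2 4, and at 0.798 CPM in KPH2 1. Its values thus resembled those of the slow troponins, with no overlap between KPH2 2 to KPH2 4 and KP tumours and with KP 6 the highest of the KP tumours. KPH2 1 was just below the lowest KP tumour. The mean was 3.93 ± 5.30 CPM over the KP tumours (SD, n = 4) and 49.3 ± 27.3 CPM over KPH2 2 to KPH2 4 (SD, n = 3), with a fitted log2 fold change of 3.73 ± 0.92 (SE; edgeR, adjusted p = 0.0848). Tnni3, cardiac troponin I, was counted at 2.96, 1.27, 1.18 and 0.979 CPM in KP 5 to KP 8, at 1.44, 1.5 and 1.8 CPM in KPH2 2 to KPH2 4, and at 1.44 CPM in KPH2 1. These values rest on 8 to 40 counts, all KPH2 values lie inside the KP range, and the log2 fold change was -0.05 ± 0.46 (SE; edgeR, adjusted p = 0.969).

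**Figure D1:**
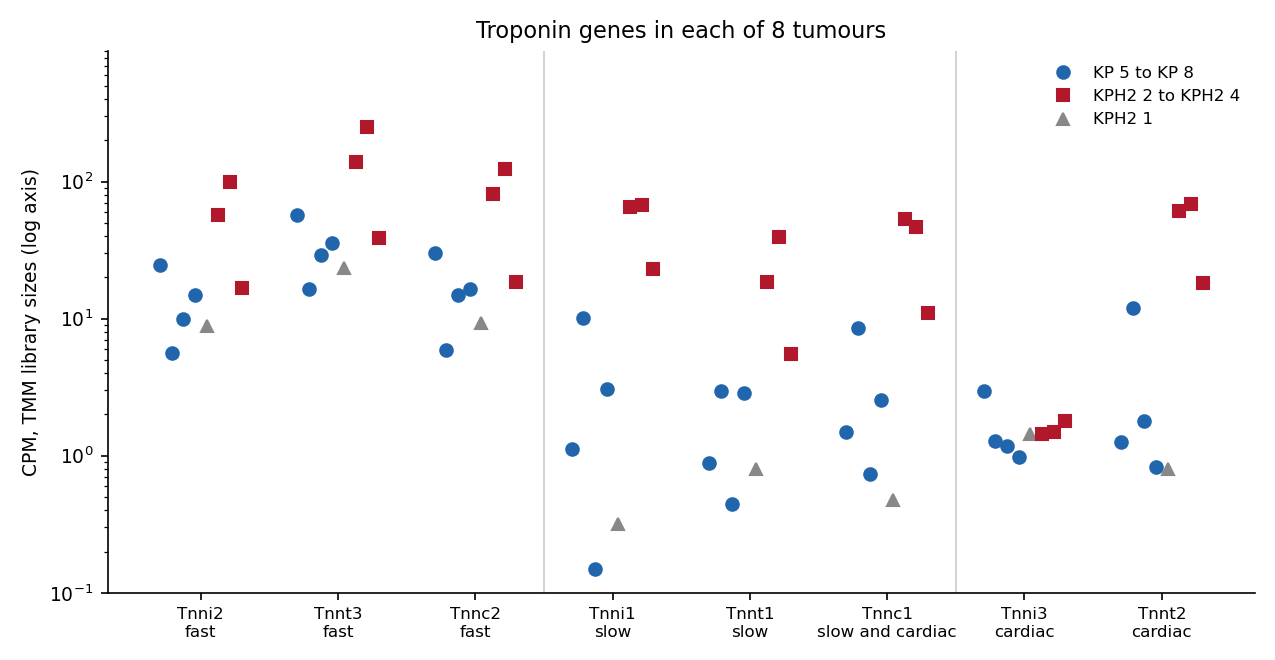
CPM on a log axis for each troponin gene in each tumour, with 1 point per tumour: circles for KP 5 to KP 8, squares for KPH2 2 to KPH2 4 and a triangle for KPH2 1. The squares lie above all circles for Tnni1, Tnnt1, Tnnc1 and Tnnt2, overlap them for the 3 fast genes and lie among them for Tnni3, and the triangle never stands with the squares except for Tnni3.

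None of the 8 troponins passed the adjusted p threshold of 0.05 in edgeR over 7 tumours, where 1.24% of all tested genes were called higher in KPH2 tumours, and 7 of the 8 had an unadjusted p under 0.05, as did 17.8% of all tested genes. The median log2 fold change was 2.82 over the 8 genes and -0.02 over all tested genes. DESeq2 on the same 7 tumours called 7 of the 8 higher, all but Tnni3, against 3.8% of the genes it tested. With KPH2 1 included, edgeR called none of the 8 and 0.00675% of all genes, with 6 at an unadjusted p under 0.05 (14.7% of all genes). DESeq2 called only Tnnt1 (adjusted p = 0.0169), against 1.62% of genes called higher. The log2 fold changes over 8 tumours were 1.68 to 1.77 for the fast genes, 3.10 to 3.47 for Tnni1, Tnnt1, Tnnc1 and Tnnt2, and -0.08 for Tnni3.

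Of the 8 genes, 4 (Tnni1, Tnnt1, Tnnc1 and Tnnt2) were without overlap between KPH2 2 to KPH2 4 and KP tumours, higher in KPH2, as were 8.73% of all tested genes. With KPH2 1 included the number was 0 of 8, against 3.76% of all genes. Single tumours bore on these values. Without KPH2 3, the tumour with the highest fast troponins, 4 of the 8 genes had an unadjusted p under 0.05 in edgeR (14.9% of all genes) and none passed the adjusted threshold. The log2 fold changes of the fast genes were then 1.34 to 1.55, and that of Tnnt1 was 2.73. Without KP 6, whose slow troponins and Tnnt2 were the highest of the KP tumours, edgeR called Tnni1 (log2 fold change 5.03, adjusted p = 0.0484), Tnnc1 (4.46, adjusted p = 0.0484) and Tnnt2 (5.30, adjusted p = 0.0306), with 0.604% of all genes called higher. Without KPH2 4, it called Tnnt1 (3.99, adjusted p = 0.0465), with 0.807% called higher.

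**Figure D2:**
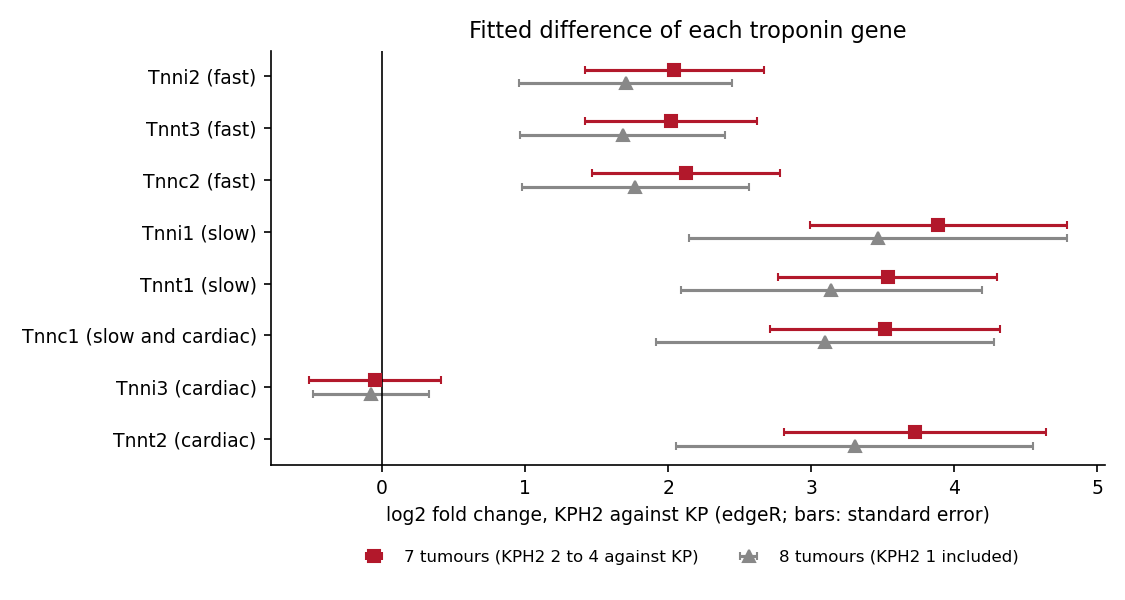
The log2 fold change of KPH2 against KP tumours for each troponin gene, fitted by edgeR over 7 tumours (squares) and over 8 tumours (triangles), with bars for the standard error. The fast genes sit near 2, the slow genes and Tnnt2 between 3.51 and 3.89 in the fit of 7 tumours, and Tnni3 near zero. Every value but that of Tnni3 is smaller in absolute size with KPH2 1 included.

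Per kilobase of exon, the fast genes had the highest mean levels in both groups. In KP tumours Tnnt3 (29.8 ± 14.6 CPM per kb, SD, n = 4) was above Tnnc2 (24.1 ± 14.3) and Tnni2 (15.8 ± 9.4), and each of these orders held in 4 of 4 tumours, while Tnni2 was above Tnnc1, the next gene, in 3 of 4. Tnnt2, Tnni1, Tnni3 and Tnnt1 followed Tnnc1, with means over these 5 genes of 4.60 to 1.66 CPM per kb, and no neighbouring pair among these 5 kept its order in all 4 tumours. In KPH2 2 to KPH2 4 the fast genes kept their order in 3 of 3 tumours, and were followed by Tnnc1 (51.2 ± 31.6 CPM per kb, SD, n = 3), Tnni1 (40.6 ± 19.4) and Tnnt2 (39.0 ± 21.6), which changed places between tumours, as did Tnni2 and Tnnc1 in 1 of 3. Tnnt1 (19.5 ± 15.7 CPM per kb) came below these and Tnni3 (1.73 ± 0.21) was last in 3 of 3 tumours. In KPH2 1 the fast genes again led, and Tnni3 was next.

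The balance of isoforms was compared within each tumour as a ratio of levels per kilobase, which cancels the library size. Fast Tnni2 exceeded slow Tnni1 by 32.5 fold in KP 5 (95% exact interval 19.5 to 58.8, counting error only), by 7.02 fold in KP 8 (5.0 to 10.1) and by 97.9 fold in KP 7, where Tnni1 rested on 1 count (17 to 3925). KP 6 stood apart from these, at a ratio of 0.823 (0.544 to 1.23). The ratio was 1.29 (1.16 to 1.44), 2.16 (1.95 to 2.38) and 1.05 (0.844 to 1.30) in KPH2 2, 3 and 4, and 40.6 (15.4 to 151.5) in KPH2 1. The interval included a ratio of 1 in KP 6 and KPH2 4 and lay above 1 in the other 6 tumours, where the ratio was lowest in KPH2 2 and KPH2 3.

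On the log2 scale, with a prior count of 2, the mean of Tnni2 over Tnni1 was 3.18 ± 2.57 over the KP tumours (SD, n = 4) and 0.52 ± 0.53 over KPH2 2 to KPH2 4 (SD, n = 3), a difference of -2.66 whose groups overlapped through KP 6 (2-sided exact permutation test, p = 0.17, 0.32 after Benjamini-Hochberg adjustment over 5 ratios). Tnnt3 over Tnnt1 was 4.2 ± 1.6 in KP and 2.66 ± 0.12 in KPH2 tumours (exact permutation p = 0.26, adjusted 0.32), and Tnnc2 over Tnnc1 was 2.61 ± 2.17 and 0.96 ± 0.42 (exact permutation p = 0.26, adjusted 0.32). In all 3 subunits KP 6 had the lowest fast to slow ratio of the 7 tumours, and KPH2 2 to KPH2 4 came next. The test has 35 splits and a smallest p of 0.029.

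Between the troponin I genes of heart and slow fibre, the groups did not overlap over 7 tumours, nor did they for Tnni1 alone. Tnni3 itself was nearly level between the groups (edgeR, log2 fold change -0.05), so this separation largely restates that of Tnni1. Tnni3 over Tnni1 was 1.76, -2.32, 2.5 and -1.0 on the log2 scale in KP 5 to KP 8, -4.84, -4.83 and -3.07 in KPH2 2 to KPH2 4, and 2.15 in KPH2 1. The difference of the means was -4.48 (exact permutation p = 0.057, adjusted 0.29). Between the troponin T genes, Tnnt2 over Tnnt1 was 0.37 ± 1.59 over the KP tumours (SD, n = 4) and 1.17 ± 0.51 over KPH2 2 to KPH2 4 (SD, n = 3) (exact permutation p = 0.49, adjusted 0.49). With KPH2 1 included, the differences were -1.62 for Tnni2 over Tnni1, -1.09 for Tnnt3 over Tnnt1, -0.93 for Tnnc2 over Tnnc1, -2.88 for Tnni3 over Tnni1 and 0.45 for Tnnt2 over Tnnt1, with exact permutation p of 0.2 to 0.66. Each was smaller in size than over 7 tumours.

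**Figure D3:**
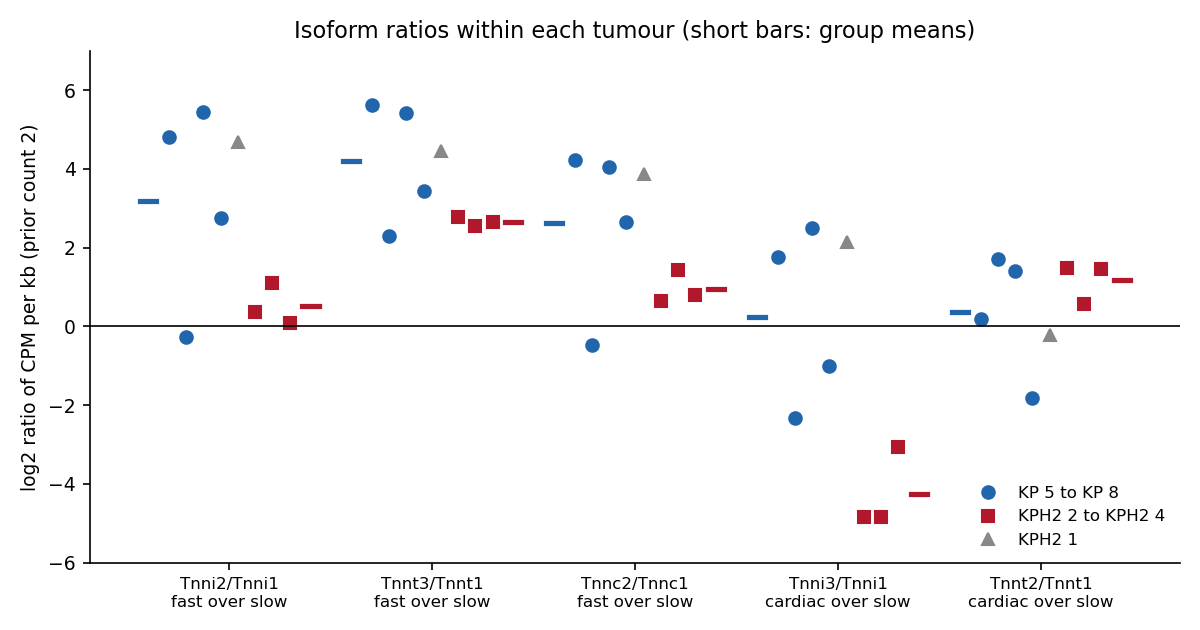
The log2 ratio of 2 genes of the same subunit, per kilobase and with a prior count of 2, in each tumour, with short bars for the means of KP 5 to KP 8 (blue) and KPH2 2 to KPH2 4 (red). In the 3 fast over slow ratios the squares lie close together and the circle of KP 6 lies below them, while the triangle of KPH2 1 stands with the higher circles.

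The level of each troponin was also set against a skeletal muscle score, the mean log2 CPM of 10 genes of striated muscle fibres that hold no troponin (among them Ckm, Acta1, Ttn, Neb, Ryr1, Cacna1s, Tcap, Pygm and Cav3). The score itself separated the groups, at 4.4 to 5.35 in KP, 5.64 to 7.90 in KPH2 2 to KPH2 4 and 4.02 in KPH2 1. Of its 10 genes, edgeR over 7 tumours called 1 higher, Neb (1.24% of all genes), and 10 had an unadjusted p under 0.05 (17.8%). DESeq2 called 9 (7.25% in either direction). Without overlap, higher in KPH2, were 6 over 7 tumours (8.73%) and 0 over 8 (3.76%). Acta1 and Neb are also counted among the thin filament partners below. In bulk tumours, fewer muscle cells and less muscle RNA per cell cannot be told apart, and neither can muscle around a tumour and muscle genes in tumour cells.

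The mean distance of the fast troponins to this score was close in both groups, with a spread between tumours. Tnni2 minus the score was -1.87 to -0.71 in KP, -1.56 to -1.27 in KPH2 2 to KPH2 4 and -0.84 in KPH2 1, and the means of KPH2 and KP tumours differed by -0.16. Tnnt3 minus the score ran from -0.36 to 0.53 over the 8 tumours, and its difference of means was -0.28. Tnnc2 minus the score ran from -1.8 in KP 6 to -0.43 in KP 5, with a difference of means of -0.10. The slow troponins and Tnnt2 ranged more widely. Tnni1 minus the score was -4.97, -1.07, -5.96 and -3.54 in KP 5 to KP 8, -1.22, -1.83 and -1.09 in KPH2 2 to KPH2 4, and -4.98 in KPH2 1. Tnnt2 minus the score was -4.82, -0.83, -3.43 and -5.23 in KP 5 to KP 8, -1.31, -1.79 and -1.44 in KPH2 2 to KPH2 4, and -4.03 in KPH2 1. KP 6 had a score of 4.42 that was close to the lowest. For its score it stood above each of KPH2 2 to KPH2 4, by little for Tnni1 and by more for Tnnt2. The other KP tumours stood below them for both genes.

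The means of KPH2 minus KP on this scale were 2.5 for Tnni1, 2.06 for Tnnt2, 1.55 for Tnnc1, 1.26 for Tnnt1 and -1.97 for Tnni3. With the score as a covariate in edgeR, none of the 8 genes had an adjusted p under 0.05 (0.0202% of all genes) or an unadjusted p under 0.05 (7.33% of all genes). The fast genes had log2 fold changes of -0.64 to -0.69, and those of Tnni1, Tnnt1, Tnnc1 and Tnnt2 were 1.07 to 3.31. The score did not overlap between the groups over the 7 fitted tumours, so this fit can hardly separate score from group. The SE of Tnni1 was 1.72 with the score and 0.90 without it, and no conclusion is drawn from the lack of calls.

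**Figure D4:**
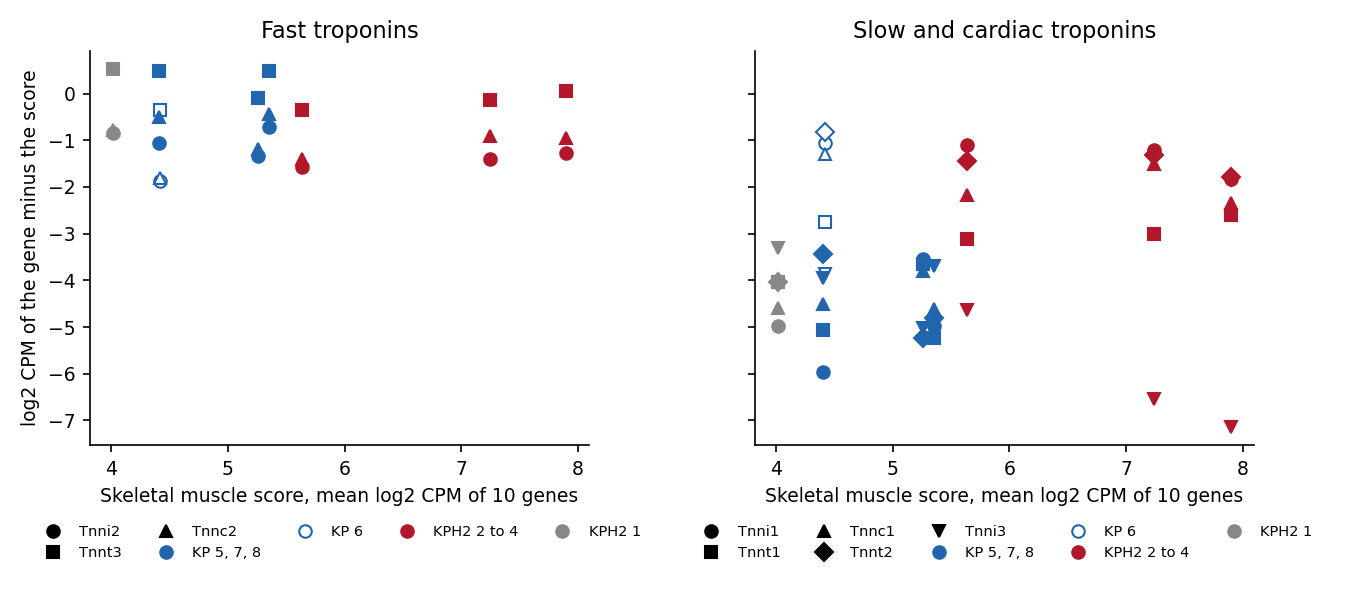
The log2 CPM of each troponin minus the skeletal muscle score (vertical) against the score (horizontal), with 1 point per gene and tumour, the fast genes on the left and the slow and cardiac genes on the right. The fast genes stay between -1.87 and 0.53 at every score, whereas Tnni1, Tnnt1, Tnnc1 and Tnnt2 are high in KPH2 2 to KPH2 4 and in KP 6 (open points) and low in the other tumours.

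Across the 8 tumours the log2 levels fell into blocks. Pearson's r was 0.993 to 0.996 among the 3 fast genes, 0.892 to 0.984 among Tnni1, Tnnt1, Tnnc1 and Tnnt2, and 0.618 to 0.786 between these blocks, while Tnni3 had r of -0.083 to 0.263 with the other 7 genes. These are descriptions over 8 libraries, and the genes compared share in each library its depth and its content of muscle RNA, both of which differ between libraries. In the neighbouring pairs of genes, Tnni1 and Tnnt2, slow and cardiac, had r of 0.920 and Tnni2 and Tnnt3, both fast, 0.996, whereas Tnnt1 and Tnni3, the closest neighbours, had r of -0.083.

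Outside the troponins, the genes with levels most like those of Tnni2 were Atp2a1 (r = 0.992 over 8 tumours), the calcium pump of fast fibres, Pvalb, the calcium buffer parvalbumin, and Myoz1, of the Z-disc. Tnnt3 was most like Art1, Myoz1 and Atp2a1, and Tnnc2 most like Art1, Atp2a1 and Trim54. Tnni1 was most like Erbb3 (r = 0.987), a receptor of neuregulins, Trim55 and Mybph. Tnnc1 was most like Mybph (r = 0.992), Casq2, the calsequestrin of slow fibres and heart, and Pgm5, and Tnnt1 most like Srl, Tmem38a and Ache, acetylcholinesterase. Tnnt2 was most like Ryr3 (r = 0.988), a calcium release channel, Chrng, the fetal subunit of the acetylcholine receptor, and Tmem8c, the myoblast fusion protein myomaker. Tnni3, on 8 to 40 counts, was most like Lrrc45 (r = 0.968), Lig1 (0.961), a DNA ligase, and Psmf1 (0.939), none of them a sarcomere gene. For every troponin these are the highest r among all tested genes, so the selection itself favours high values. What the genes share was not tested.

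The partners of troponin on the thin filament were called higher in KPH2 2 to KPH2 4 for 2 of 10 genes, Lmod2 (log2 fold change 2.74, edgeR, adjusted p = 0.040), a leiomodin that starts actin filaments, and Neb (2.23, adjusted p = 0.0430), the filament ruler nebulin. In edgeR over 7 tumours 1.24% of all tested genes were called higher. None of the 10 was called lower. Of the 10, 9 had a positive and 1, the tropomyosin gene Tpm3, a negative log2 fold change, and the median was 1.75. An unadjusted p under 0.05 was found for 7 of the 10 (17.8% of all genes), and DESeq2 called 4 (7.25% of all genes in either direction). Actc1, cardiac actin, which skeletal muscle also uses before birth, was singled out after its values were seen: it was counted at 1.48, 20.2, 0 and 0.452 CPM in KP 5 to KP 8, at 105.2, 226.3 and 37.8 CPM in KPH2 2 to KPH2 4, and at 0 in KPH2 1. KP 6 was again the highest of the KP tumours (log2 fold change 4.56, edgeR, adjusted p = 0.131).

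Of 10 other genes of fast fibres, none passed the threshold in edgeR, 10 had an unadjusted p under 0.05 (17.8% of all genes), and DESeq2 called 6 (7.25% of all genes in either direction). All 10 had positive log2 fold changes, with a median of 2.03. The highest by level was Myh4, a fast myosin heavy chain, at 171.7 ± 102.0 CPM over the KP tumours (SD, n = 4) and 524.8 ± 369.6 CPM over KPH2 2 to KPH2 4 (SD, n = 3). Of 8 other genes of slow fibres, 7 were tested, 1 passed, Myoz2 of the Z-disc (log2 fold change 3.32, edgeR, adjusted p = 0.0418; 1.24% of all genes were called higher), and the median was 0.91. An unadjusted p under 0.05 was found for 2 (17.8% of all genes), and DESeq2 called 2 (7.25% in either direction). Atp2a2, a calcium pump that many other cells express as well, made up most of the summed level of that list and had a log2 fold change of -0.23 (edgeR, adjusted p = 0.595). Myh7, the slow myosin heavy chain, overlapped between the groups, at 0.222, 9.74, 1.18 and 14.2 CPM in KP 5 to KP 8, 30.0, 45.1 and 5.62 CPM in KPH2 2 to KPH2 4, and 0.0798 CPM in KPH2 1.

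Of 9 genes of developing and regenerating muscle, 6 were higher in KPH2 2 to KPH2 4 without overlap over 7 tumours (8.73% of all genes) and 0 over 8 (3.76% of all genes). All 9 had positive log2 fold changes with a median of 4.05, and 1 passed the threshold, Myf5 (5.59, edgeR, adjusted p = 0.0418), a transcription factor of myoblasts, where 1.24% of all genes were called higher. An unadjusted p under 0.05 was found for 9 (17.8% of all genes), and DESeq2 called 6 (7.25% of all genes in either direction). Their mean log2 CPM was 0.68, 3.51, -0.56 and 0.48 in KP 5 to KP 8, 6.08, 6.02 and 4.41 in KPH2 2 to KPH2 4, and -0.36 in KPH2 1, so KP 6 stood between the other KP tumours and KPH2 2 to KPH2 4. Myh3, embryonic myosin heavy chain, was singled out after its values were seen: it was counted at 5.86, 58.2, 0.444 and 1.58 CPM in KP 5 to KP 8, at 400.0, 646.1 and 108.7 CPM in KPH2 2 to KPH2 4, and at 1.28 CPM in KPH2 1.

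Genes of heart muscle gave a mixed picture beside Tnnt2. Of 9 cardiomyocyte genes, 4 passed the filter on low counts and 1 passed the threshold, Myl4 (log2 fold change 3.63, edgeR, adjusted p = 0.048), a myosin light chain of the atria that fetal skeletal muscle also expresses. The median of the 4 was -0.77, 2 had an unadjusted p under 0.05 (17.8% of all genes) and DESeq2 called 1 (7.25% of all genes in either direction), where edgeR called 1.24% of all genes higher. Of the 9 genes, 4 were at or near 0: Nkx2-5 had no count in any tumour, Myl7 had at most 1 count, and Myh6 and Gata4 at most 2. Nppa, a natriuretic peptide gene, had at most 12 counts. Nppb, the other natriuretic peptide gene of the list, had 176 counts in KP 8, 77 in KPH2 2 and at most 11 elsewhere. Ryr2, the cardiac calcium release channel, had 1 to 52 counts. Mybpc3, cardiac myosin-binding protein C, had 8 to 15 counts in KP tumours, 4 in each of KPH2 2 to KPH2 4 and 8 in KPH2 1, and its CPM were lower in KPH2 tumours without overlap over 7 tumours (8.15% of all genes) and over 8 (4.4% of all genes; log2 fold change -1.61, edgeR, adjusted p = 0.096 over 7 tumours). The summed level of the list was 6.37 to 19.4 CPM in KP, 26.9 to 87.4 CPM in KPH2 2 to KPH2 4 and 5.75 CPM in KPH2 1, and Myl4 made up 79.5 of 87.4 CPM in KPH2 2.

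Among markers of other cells, smooth muscle had 1 of 6 genes lower in KPH2 2 to KPH2 4, Cnn1 (log2 fold change -3.69, edgeR, adjusted p = 0.0491), where 0.72% of all genes were called lower. In either direction, an unadjusted p under 0.05 was found for 3 of the 6 (17.8% of all genes), and DESeq2 called 3 (7.25% of all genes). The 3 by unadjusted p were Cnn1, Myh11, smooth muscle myosin heavy chain (log2 fold change -1.27, edgeR, adjusted p = 0.0588), and Actg2, a smooth muscle actin, whose value was positive (2.96, edgeR, adjusted p = 0.195). Cnn1, Myh11 and the endothelial genes Pecam1 and Kdr were lower without overlap over 7 tumours (8.15% of all genes) and over 8 (4.4% of all genes). None of 5 endothelial, 4 macrophage or 1 tested adipocyte gene passed in edgeR, with 2, 2 and 1 at an unadjusted p under 0.05 (17.8% of all genes), 2, 1 and 0 called by DESeq2 (7.25% of all genes), and medians of -0.61, -0.55 and -1.4. The summed macrophage level was 863.0 to 1779 CPM in KP, 529.5 to 948.3 CPM in KPH2 2 to KPH2 4 and 702.7 CPM in KPH2 1, and the part of such differences in the troponin values was not tested. With KPH2 1 included, no gene of any of these lists passed the threshold in edgeR, where 0.00675% of all genes did, with 0 to 7 genes per list at an unadjusted p under 0.05 (14.7% of all genes) and 0 to 2 per list called by DESeq2 (3.94% of all genes).

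**Figure D5:**
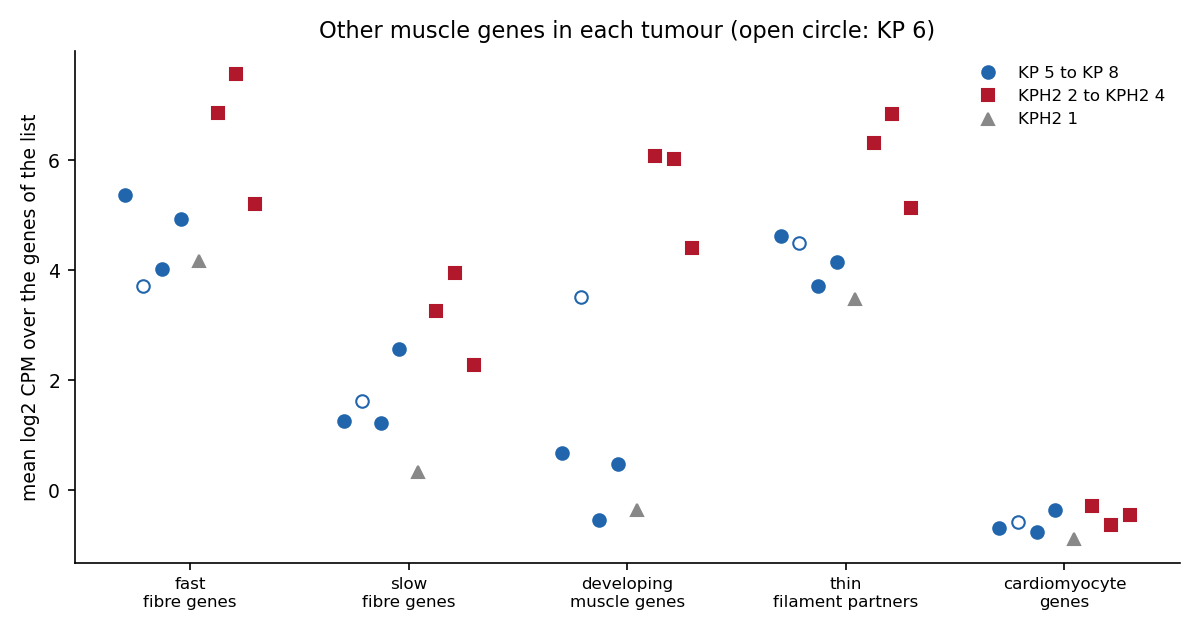
The mean log2 CPM over the genes of 5 lists in each tumour: circles for KP 5 to KP 8 (open for KP 6), squares for KPH2 2 to KPH2 4 and a triangle for KPH2 1. KP 6 is the lowest tumour for fast fibre genes and the highest KP tumour for genes of developing muscle, at 3.51, and the cardiomyocyte list stays below 0 in every tumour.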

How the data were processed

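Stranded, ribosomal RNA-depleted libraries of 8 tumours were used. Per the labels and methods, the authors' pipeline was STAR 2.4 (GRCm38) followed by HTSeq 0.6.1, which assigned uniquely aligned reads to RefSeq genes, and the deposited counts are not normalized. The deposited log2 values (DESeq2 1.6, rlog), which shrink genes with low counts, cover 7 tumours and served in an alternative.

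Groups were compared by edgeR 4.0.16 (R 4.3.3): TMM normalization, filterByExpr (minimum count 10, minimum total count 15), robust quasi-likelihood test, no covariates, Benjamini-Hochberg adjustment over all tested genes, threshold 0.05. The SE is the log2 fold change over the square root of its F statistic. CPM values use TMM factors over 8 tumours, and log2 values a prior count of 2. Lengths per kilobase are the union of exons in GENCODE, whereas counting used RefSeq. Ratios were tested by 2-sided exact permutation over the 35 splits of the tumours. Totals of 6463221 to 13155510 counts leave genes under 1 CPM on few counts, and intervals cover counting error only.

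Members and lists were chosen with earlier results of these data known. All 8 troponins and Epas1 are named, from each list the genes past the threshold and otherwise the highest by level, and for each troponin the 3 tested genes with the highest Pearson's r. Other genes named from the lists, and Ube2c, were chosen after seeing their values. Adgre1 was not matched and is not analysed here. A further allele of the mice and a gene of the muscle score are not reported here. The tests were tried on simulated data. Alternatives were all 8 tumours, other normalizations, filters and dispersions, each tumour left out, the muscle score as a covariate, limma 3.58.1 on the log2 values, DESeq2 1.42.0 (fold changes shrunk by a normal prior or not), and another prior count for ratios. DESeq2 over all 8 tumours was added after seeing the data.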

Additional observations from a re-analysis of the deposited data

Results flagged for a closer look

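Of 26 groups of 4 values, 4 held a tumour far from the other 3, with a gap to its nearest neighbour that exceeded Dixon's 95% critical share of the whole range, and chance flags about 1 in 20 groups. Tnnt2 in KP 6 was the highest of the KP tumours at 11.9 CPM, a gap of 0.914 of the range. Tnni3 in KP 5 was the highest of the KP tumours at 2.96 CPM (0.853), from 40 counts. Tnni3 in KPH2 4 was the highest of all 4 KPH2 tumours at 1.8 CPM (0.83), from 16 counts. The log2 ratio of Tnnt3 over Tnnt1 in KPH2 1 was the highest of the KPH2 tumours at 4.45 (0.878).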

How the results depend on the processing

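No paired analysis was possible because the replicate numbers 1 to 4 of KPH2 and 5 to 8 of KP tumours are not shared. The number of troponin genes past the threshold, 0 in edgeR over 7 tumours, was 7 by DESeq2 with or without a prior, 1 by DESeq2 over all 8 tumours either way, 0 to 3 when a tumour was left out and 0 under the other settings. The number over all genes, 292, became 1 with KPH2 1 included, 3 with the muscle score as a covariate, 50 by limma on the log2 values, 1178 and 1172 by DESeq2 without and with a prior, 643 and 620 by DESeq2 over 8 tumours, and 55 to 349 when a tumour was left out. The fit with the muscle score as a covariate can hardly separate score from group. In it the log2 fold changes of Tnni2, Tnnt3 and Tnnc2 turned to -0.64, -0.66 and -0.69. That of Tnni3, near zero, was -0.25 to 0.48 when a tumour was left out, positive without KP 5 (0.48) or without KPH2 2 (0.017), and 0.013 on the log2 values. The causes were not tested. Tnni3 over Tnni1 differed by -2.41 on the deposited log2 values, with exact permutation p of 0.029, the smallest possible. All 5 ratios kept their direction under all 10 alternatives, but single tumours moved their sizes. With a tumour left out the smallest possible p is 0.1 (3 against 3) or 0.067 (4 against 2), so those p-values say nothing of stability. Without KP 6 the differences were -3.81 for Tnni2 over Tnni1, -2.17 for Tnnt3 over Tnnt1, -2.68 for Tnnc2 over Tnnc1, -5.33 for Tnni3 over Tnni1 and 1.24 for Tnnt2 over Tnnt1, against -2.66, -1.54, -1.65, -4.48 and 0.80 over 7 tumours, and without KP 8 that of Tnnt2 over Tnnt1 was 0.071. Leaving out KP 5 or KP 7 gave -2.12 and -1.91 for Tnni2 over Tnni1, -1.06 and -1.13 for Tnnt3 over Tnnt1, -1.12 and -1.17 for Tnnc2 over Tnnc1, and -3.97 and -3.72 for Tnni3 over Tnni1. With KPH2 1 included, the counts of called genes in the lists of thin filament partners, slow fibre, cardiomyocyte, developing muscle, skeletal muscle and smooth muscle genes fell to 0. Of 151 alternative values for single troponin genes, 125 kept their direction and side of the threshold. Sizes depended on the fit. DESeq2 with a normal prior gave log2 fold changes of 1.57 to 1.61 for the fast genes. For Tnni1, Tnnt1, Tnnc1 and Tnnt2 it gave 1.58, 2.45, 1.84 and 1.70. Over 8 tumours that fit gave 1.09 to 1.11, and 0.81, 1.51, 0.94 and 0.94. Limma on the log2 values gave 1.18 to 1.24 for the fast genes and 1.74 to 2.42 for the others but Tnni3. At these depths Tnni3, and the slow genes in KP tumours, rest on few counts.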
